A study of Mus musculus with 7 samples.

Results

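The 3 peroxisome proliferator-activated receptor genes (*Pparg*, *Ppara* and *Ppard*), the 3 retinoid X receptor genes (*Rxra*, *Rxrb* and *Rxrg*) and 4 target genes best known from fat tissue (*Fabp4*, *Cd36*, *Lpl* and *Angptl4*) were followed in the ovarian stroma of mice with and without the progesterone receptor (PGR). These 10 genes, out of 52230 genes with a matched transcript, were chosen by name and not by their level. The tissue was the mouse ovary after its follicles had been punctured to empty them of granulosa cells, and it holds stromal, theca, vascular and immune cells. The KO group carried the *Pgr*-null PRKO allele (Pgrtm1Bwo; PGR -/-), which removes both PGR isoforms and acts in the whole animal, and the WT group was made of PGR +/+ littermates. All mice were immature females, 21 to 27 days old by the protocol and 21 to 25 days old by the series description, and all had received 5 IU eCG and, 44 h later, 5 IU hCG, with ovaries taken 8 h post-hCG. There were 4 WT libraries (WT1 to WT4) and 3 KO libraries (KO2 to KO4), each made from tissue pooled from 3 mice, so the spread between libraries is that between pools.

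PPARs are nuclear receptors that bind DNA as a heterodimer with an RXR and are switched on by fatty acids and their derivatives. PPARG is the receptor that drives fat cell formation and fat storage, whereas PPARA and PPARD are known for fatty acid oxidation. In the ovary PPARG is best known from granulosa cells, where it has been placed downstream of the PGR at ovulation, and fat cells also make a longer PPARG protein from a promoter of their own.

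The libraries held 47.4 M to 63.4 M reads assigned to transcripts, and the targeted gene followed the labels. *Pgr* stood at 19.5, 31.0, 21.5 and 16.8 CPM (reads scaled to the size of the library) in WT1 to WT4 and at 6.13, 6.52 and 7.56 CPM in KO2 to KO4, so every KO library was below every WT library (edgeR log2 fold change, logFC = −1.72, padj = 0.0544; exact permutation p = 0.0286, two-sided, the smallest that 4 against 3 libraries allow). A gene was called when edgeR's quasi-likelihood test gave a Benjamini–Hochberg adjusted p (padj) of at most 0.05 and a logFC of at least 0.5 in size. Of 19233 genes tested, 2 were called (0.0104%).

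None of the 10 genes was called. Of the 9 that could be tested, *Pparg* and *Fabp4* had an unadjusted p under 0.05, both with the KO mean below the WT mean, where 5.10% of all genes tested did so. The same genes were the only members with every KO library below every WT library in CPM, a pattern found in 5.12% of all genes tested. The other 7 tested genes differed between the group means by 0.10 or less on the log2 scale. DESeq2, the test the study used, called *Pparg* alone among the members (logFC = −0.59, padj = 0.0438), where it called 0.447% of all genes as lower in KO.

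The PPARG form made in this tissue could be read from the coding starts of the *Pparg* transcripts. *Pparg* lies on the plus strand of chromosome 6 (GRCm39, chr6:115337675-115468268). The files hold 7 of its transcripts, among them Pparg-204 and Pparg-202, which code the same protein of 475 codons, and Pparg-201, which codes the longer protein of 505 codons that is known from fat cells. The coding sequence of the longer form opens with 90 bases that the shorter form lacks, of which 82 lie in a first exon of its own (chr6:115399072-115399153) and 8 in the next exon (chr6:115416801-115416808). The shorter form starts directly after them (its first 60 bases, chr6:115416809-115416868). They are shown from the GRCm39 genome because they tell the forms apart, with the start codon in capitals.
Longer form, added bases (Pparg-201): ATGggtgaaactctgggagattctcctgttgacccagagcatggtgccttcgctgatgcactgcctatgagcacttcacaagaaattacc
Shorter form, first coding bases (Pparg-204): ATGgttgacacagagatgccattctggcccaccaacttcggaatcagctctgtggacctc

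Promoter windows from RefSeq (GRCm38.p6, 250 bases before to 50 bases after a gene's start, 300 in all) were found for 7 of the 10 genes, in 12 windows. They were searched on both strands for AGGTCA, the hexamer that nuclear receptors of this class bind, for a tandem pair of it spaced by 1 base, which is the PPAR–RXR element, and for ACANNNTGT, the core of the progesterone receptor element. The hexamer was in 5 of the 12 windows, beside 16.3% of all 32851 windows in the table. The pair was in 0 of the 12, beside 0.0396% of all windows, and the progesterone receptor core in 0 of the 12, beside 6.85%. The tandem pair contains the single hexamer, so these searches overlap. Each hexamer of a member window is shown with 12 bases on each side, on the strand of its gene and with its position in GRCm39, where each window had 1 exact match; capitals mark the hexamer, read as TGACCT where it lies on the opposite strand.
*Pparg*, chr6:115338065-115338094: agccgccgcctcAGGTCAgagtcgccccgg
*Pparg*, chr6:115339289-115339318: agggacgcgaggAGGTCAagaaggggcctg
*Rxra*, chr2:27599205-27599234: tagaaatgggtgTGACCTgagtaatggtca
*Rxra*, chr2:27599244-27599273: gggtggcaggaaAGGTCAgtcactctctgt
*Rxrg*, chr1:167445734-167445763: atcggggttgaaAGGTCAgctgaaagcttc
*Cd36*, chr5:18041105-18041134: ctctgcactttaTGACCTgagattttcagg
In *Pparg* the hexamers ended 23 and 4 bases before 2 RefSeq starts. These lie near the annotated starts of Pparg-202 (chr6:115337912) and Pparg-204 (chr6:115339253). Both hexamers lie after those annotated starts and not before them. The window at the start of the longer form held none. These matches describe the letters of the windows and say nothing of binding.

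*Pparg* stood at 23.9, 35.4, 27.0 and 37.8 CPM in WT1 to WT4 and at 18.2, 19.7 and 23.6 CPM in KO2 to KO4. The groups did not overlap, but the lowest WT library (WT1) and the highest KO library (KO4) nearly met, and WT2 and WT4 stood well above WT1 and WT3. The mean was 31.0 ± 6.63 CPM in WT (SD, n = 4) and 20.5 ± 2.82 CPM in KO (SD, n = 3), which is 66.1% of WT. The edgeR logFC was −0.60 (SE 0.17, 95% interval −0.97 to −0.22) with an unadjusted p of 0.00594 and padj = 0.330, and the exact permutation test on log2 CPM gave p = 0.0571 (two-sided). In TPM, which also divides by the length of each transcript, the values were 19.4, 33.4, 24.5 and 35.1 in WT and 16.7, 17.5 and 22.7 in KO. On that scale the groups overlapped, since WT1 was below KO4 (exact permutation p = 0.114). In whole tissue, less RNA per cell and fewer cells that make it cannot be told apart.

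**Figure D1:**
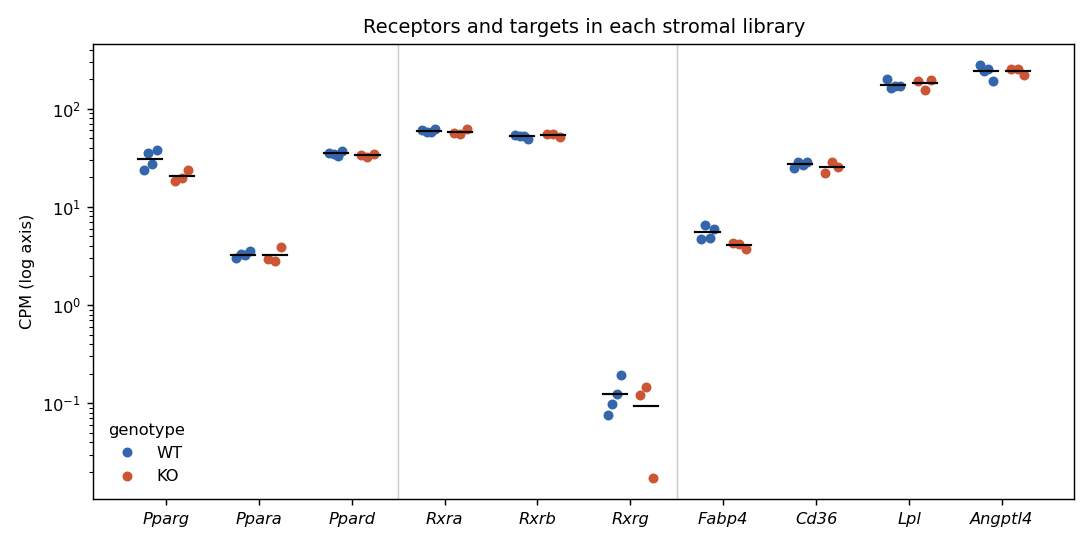
CPM (log axis) of the 10 genes in each library, with WT in blue, KO in orange and a black bar at each group mean; grey lines part PPARs, RXRs and targets. For *Pparg* the 4 WT libraries lie between 23.9 and 37.8 CPM and the 3 KO libraries between 18.2 and 23.6 CPM.

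Nearly all *Pparg* RNA was of the shorter form. Pparg-204 held 85.1% of the *Pparg* TPM summed over the 7 libraries, with 16.8, 27.9, 21.1 and 30.3 TPM in WT and 13.2, 14.9 and 19.8 TPM in KO. Its pattern was that of the gene, with WT2 and WT4 highest and WT1 below KO4 (transcript-level edgeR logFC = −0.64, SE 0.21, unadjusted p = 0.0173, padj = 0.9998 over 55145 transcripts). Pparg-202 held another 10.5%, with 2.35, 3.78, 1.87 and 2.92 TPM in WT and 1.83, 2.48 and 2.60 TPM in KO, and these ranges overlapped (logFC = −0.29, SE 0.25). The longer, adipocyte-type Pparg-201 held 1.69% of *Pparg* TPM, at 0.18, 0, 1.50 and 0.51 TPM in WT and 0.67, 0 and 0 TPM in KO. It was listed at 0 in 3 of the 7 libraries and was highest in WT3. Its share of *Pparg* TPM was 2.12 ± 2.72% in WT and 1.34 ± 2.32% in KO (exact permutation p = 0.714), and the difference of −0.78 percentage points turned to 0.55 without WT3.

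**Figure D2:**
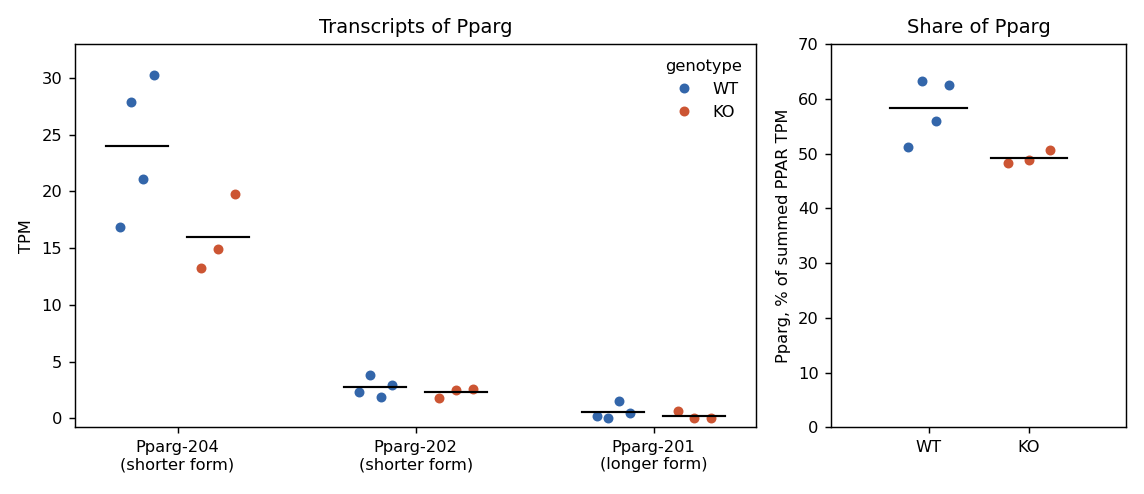
Left, TPM of the leading transcripts of each *Pparg* form in the WT (blue) and KO (orange) libraries; right, *Pparg* as a percentage of the summed TPM of the 3 PPAR genes. Points are libraries and black bars are group means. Pparg-204 reaches 30.3 TPM, whereas Pparg-201, the longer form, stays at or under 1.50 TPM.

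*Ppara* (chr15:85618656-85687067), the PPAR best known from liver and heart, was the lowest of the PPARs, at 3.00, 3.34, 3.23 and 3.52 CPM in WT and 2.94, 2.83 and 3.86 CPM in KO. The groups overlapped (logFC = −0.03, 95% interval −0.35 to 0.30, padj = 0.975). In TPM its mean was 1.85 ± 0.53 in WT and 2.23 ± 1.08 in KO, with the sign of the difference turned. A fragment of 367 bases with no annotated coding sequence, Ppara-206, was at 0 to 1.60 TPM, while the full-length Ppara-202 stayed between 1.09 and 1.71 TPM. The gene *Cdpf1* overlaps *Ppara* on the opposite strand.

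*Ppard* (chr17:28451674-28520448), the most widely expressed PPAR, stood at 35.01, 34.9, 32.9 and 37.5 CPM in WT and 33.8, 32.2 and 34.9 CPM in KO. The 7 libraries lay close together and overlapped between the groups (logFC = −0.06, SE 0.06, 95% interval −0.20 to 0.08, padj = 0.824). The interval ends short of the logFC estimated for *Pparg* (−0.60), whose own interval reached −0.22. The difference between these genes was not tested. Its main transcript, Ppard-201, ranged from 13.7 to 17.0 TPM.

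The weight of *Pparg* within its family was read as its share of the summed PPAR TPM. It made up 51.2, 63.2, 56.0 and 62.5% in WT and 48.3, 48.8 and 50.6% in KO. Every KO library was below every WT library, but WT1 and KO4 nearly met. The sum includes the fragment Ppara-206, at 1.60 TPM in KO4 and 0 in WT1. Leaving it out would raise the share of KO4 and not that of WT1, so the separation of the groups in TPM rests on it. The means were 58.2 ± 5.69% and 49.2 ± 1.19% (difference −9.02 percentage points, exact permutation p = 0.0571).

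The RXRs, with which PPARs pair on DNA, were present in all libraries as *Rxra* and *Rxrb*. *Rxra* (chr2:27566452-27653330) stood at 60.9, 58.4, 57.7 and 62.1 CPM in WT and 56.5, 55.2 and 62.8 CPM in KO (logFC = −0.04, 95% interval −0.18 to 0.10, padj = 0.894), nearly all of it as Rxra-201, with 17.3 to 21.0 TPM. *Rxrb* (chr17:34250759-34257376) stood at 54.5, 53.3, 53.1 and 49.7 CPM in WT and 54.7, 55.6 and 52.0 CPM in KO (logFC = 0.04, 95% interval −0.08 to 0.16, padj = 0.876). For both genes the groups overlapped, and the intervals lie within 0.20 of 0 on the log2 scale.

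Within *Rxrb* the transcripts were spread over several forms. Rxrb-202 (410 codons) held 56.3% of the gene's TPM, with 21.7, 22.1, 24.9 and 23.5 TPM in WT and 24.5, 25.5 and 25.6 TPM in KO. Rxrb-201 (524 codons) was at 3.12, 5.30, 5.76 and 5.22 TPM in WT and 5.96, 6.34 and 6.68 TPM in KO (logFC = 0.34, SE 0.18, unadjusted p = 0.103, padj = 0.9998). Every KO library was thus above every WT library in TPM. The share of all transcripts with that pattern was counted in CPM, where it was 3.00%. Rxrb-203 (414 codons) lay the other way, with 2.79 to 4.65 TPM in WT and 2.39 to 2.68 TPM in KO (unadjusted p = 0.0355). It had no overlap in TPM, where 3.20% of all transcripts had every KO library below every WT library in CPM. Rxrb-203 was named after its values were seen. Of 60 transcripts of the 10 genes, 34 could be tested, 0 were called (0.00725% of all transcripts tested were) and 4 had an unadjusted p under 0.05 (4.48% of all did): Pparg-204, Fabp4-201, Rxrb-203 and Rxrb-209, a retained-intron form of *Rxrb*. DESeq2 called 0 of the 34, and 0.535% of all transcripts tested.

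*Rxrg* (chr1:167425673-167467193), the RXR best known from muscle and brain, was near the limit of detection. Its summed counts were 1 to 12 reads per library, or 0.08, 0.10, 0.12 and 0.19 CPM in WT and 0.12, 0.15 and 0.02 CPM in KO. It did not pass the filter on low counts and was not tested, and the 4 *Rxrg* transcripts were each listed at 0 in some libraries, so the heterodimer partners read here were *Rxra* and *Rxrb*.

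Of the targets, *Fabp4* (chr3:10268785-10273737, minus strand), the fatty acid-binding protein of fat cells, macrophages and capillary endothelium, stood lowest. It was at 4.73, 6.62, 4.77 and 5.90 CPM in WT and at 4.27, 4.23 and 3.74 CPM in KO, so every KO library was below every WT library, with WT1 and WT3 close to the KO values. The means were 5.50 ± 0.92 CPM in WT (SD, n = 4) and 4.08 ± 0.29 CPM in KO (SD, n = 3), and KO stood at 74.2% of WT. The logFC was −0.43 (SE 0.15, 95% interval −0.77 to −0.10, unadjusted p = 0.0171, padj = 0.420; exact permutation p = 0.0857). In TPM the values were 8.49, 12.7, 9.39 and 11.7 in WT and 7.72, 7.96 and 7.96 in KO, again without overlap, and Fabp4-201 held 98.0% of them.

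*Cd36* (chr5:17986432-18094067, minus strand), which codes a fatty acid and lipoprotein receptor of endothelium, macrophages and fat cells, was at 24.7, 28.9, 27.0 and 28.6 CPM in WT and 22.2, 29.0 and 25.7 CPM in KO (logFC = −0.09, SE 0.10, 95% interval −0.31 to 0.13, padj = 0.828), and the groups overlapped. Its TPM lay in 3 transcripts that code the same length of 472 codons, Cd36-203 with 48.2%, Cd36-206 with 24.8% and Cd36-202 with 15.2% of the gene's TPM.

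*Lpl* and *Angptl4* were the most abundant of the 10 genes. *Lpl* (chr8:69284603-69360100), the lipase that frees fatty acids from lipoproteins in capillaries, was at 198, 161, 169 and 169 CPM in WT and 192, 157 and 195 CPM in KO (logFC = 0.06, SE 0.10, 95% interval −0.17 to 0.28, padj = 0.907). *Angptl4* (chr17:33992724-34000804, minus strand), a secreted inhibitor of LPL that PPARs and fasting are known to induce, was at 281, 244, 257 and 190 CPM in WT and 255, 251 and 221 CPM in KO (logFC = −0.00, SE 0.12, 95% interval −0.28 to 0.27, padj = 0.997). In both genes the groups overlapped, and WT4 was the lowest library for *Angptl4*.

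By the files' split of reads, 84.2% of *Angptl4* TPM lay in Angptl4-202, a transcript of 1859 bases that the annotation marks for nonsense-mediated decay. It was at 174, 168, 176 and 126 TPM in WT and 171, 172 and 158 TPM in KO, whereas Angptl4-201, which codes the full protein of 410 codons in 3308 bases, was at 28.7, 28.3, 28.5 and 23.4 TPM in WT and 26.7, 26.9 and 27.7 TPM in KO. Salmon divides reads among transcripts that share exons, and the uncertainty of that division is not in the tests.

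**Figure D3:**
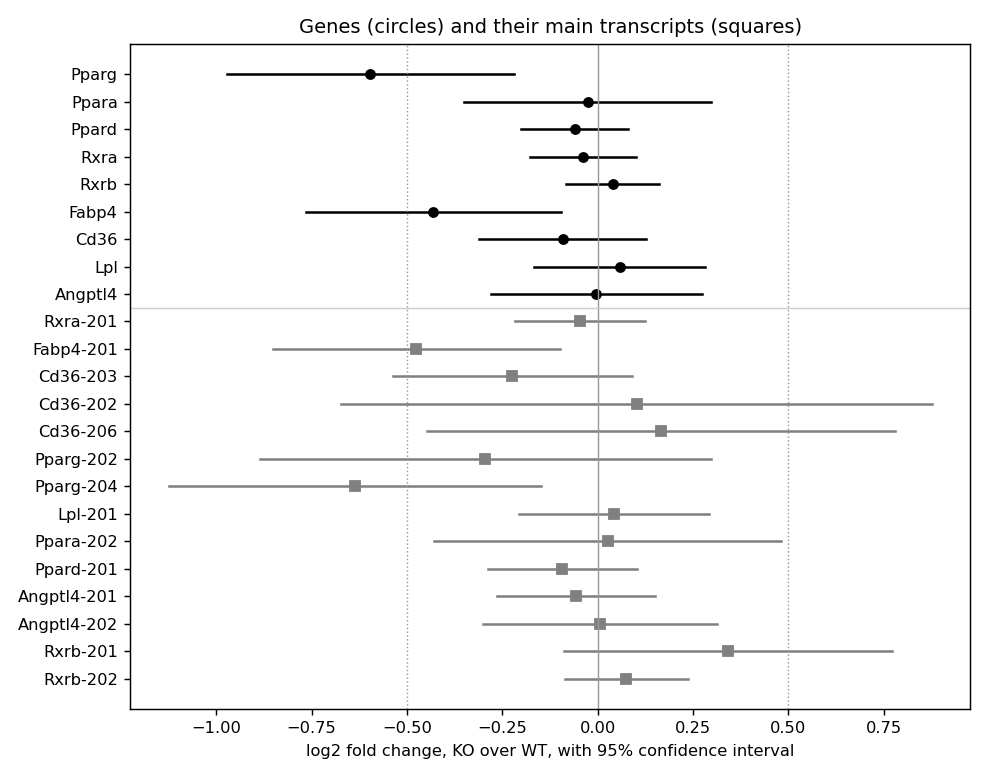
Log2 fold change of KO over WT with its 95% confidence interval from edgeR for the 9 genes that could be tested (black circles) and for their transcripts with at least 10% of the gene's TPM (grey squares); dotted lines mark the limit of 0.5. Only the intervals of *Pparg*, *Fabp4*, Pparg-204 and Fabp4-201 lie wholly below 0.

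Between genes, levels were compared in TPM. In WT the order of the means was *Angptl4* (191 TPM), *Lpl* (65.3), *Rxrb* (41.3), *Pparg* (28.1), *Rxra* (18.6), *Ppard* (17.7), *Cd36* (16.2), *Fabp4* (10.6), *Ppara* (1.85) and *Rxrg* (0.12). The libraries of neighbouring genes overlapped for *Pparg* and *Rxra*, for *Rxra* and *Ppard*, and for *Ppard* and *Cd36*, and not for the other pairs of neighbours. In KO *Pparg* averaged 18.9 TPM, next to 18.7 TPM for *Rxra* and 17.2 TPM for *Ppard*.

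Further genes of the pathway were read from 8 lists, of which 155 genes were tested and 0 called by edgeR. DESeq2 called 2 of them, *Klf15* as lower (logFC = −0.53, padj = 3.27e-05) and *Egr2* as higher in KO (logFC = 0.54, padj = 2.94e-05), where it called 0.749% of all genes tested. Without the filter on low counts edgeR called the same genes (padj = 0.0467 and 0.0257), beside 0.11% of all genes. Of 44 other adipocyte-type targets of PPARG, 38 were tested, of which 7 were lower in KO at an unadjusted p under 0.05 and 0 were higher, beside 5.10% and 3.84% of all genes. The median logFC of the list was −0.12, beside −0.00 for all genes tested. *Klf15*, a transcription factor of fat and muscle metabolism, was at 17.6, 15.4, 15.4 and 16.1 CPM in WT and 10.3, 11.8 and 11.5 CPM in KO, without overlap (logFC = −0.53, SE 0.08, padj = 0.111). *Mgll*, the lipase of monoglycerides, was at 51.7 to 57.2 CPM in WT and 44.6 to 46.2 CPM in KO (logFC = −0.27, SE 0.05, padj = 0.190). Another 4 were *Plin4* and *Plin5*, which code lipid droplet coat proteins, and *Gk* and *Dgat1*, enzymes of glycerol and triglyceride metabolism, all named after their values were seen. *Plin4* was at 68.3, 187, 154 and 187 CPM in WT and 36.4, 26.2 and 80.4 CPM in KO, with WT1 below KO4 as for *Pparg* TPM (logFC = −1.64, SE 0.44, padj = 0.318).

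The fatty acid oxidation genes that PPARA and PPARD are known to drive were divided in direction. Of 39 genes 35 were tested, with 3 lower and 2 higher in KO at an unadjusted p under 0.05 and a median logFC of −0.06. *Acaa2*, a thiolase of mitochondrial beta-oxidation, was at 149 to 183 CPM in WT and 135 to 144 CPM in KO (logFC = −0.24, padj = 0.386), *Slc22a5*, the carnitine transporter, had a logFC of 0.28 (padj = 0.429) and *Fabp3*, the fatty acid-binding protein of heart muscle, one of −0.38 (padj = 0.483). In the list for binding and uptake of fatty acids, 19 of 24 genes were tested. At an unadjusted p under 0.05, 3 were lower and 2 higher, and the median logFC was −0.08. *Fabp3* is in both lists. *Fabp6* of the ileum had a logFC of −1.21 at 0.06 to 0.35 CPM, close to the limit of detection, and *Slc27a6*, a fatty acid transporter, one of 0.29 (padj = 0.399).

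Of the 20 genes for the maturation and control of LPL, 17 were tested and 1 was lower in KO at an unadjusted p under 0.05. *Vldlr*, a lipoprotein receptor, was not that gene. It was at 67.3 to 85.7 CPM in WT and 67.0 to 72.2 CPM in KO (edgeR logFC = −0.15, unadjusted p = 0.109, padj = 0.647), and the list's median was 0.01.

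Of the partners and inputs of the PPARs, 22 of 22 coregulators were tested. At an unadjusted p under 0.05, 1 was lower and 1 higher in KO, beside 5.10% and 3.84% of all genes. *Tle3*, a corepressor that acts with PPARG in fat cells, was at 65.4 to 77.1 CPM in WT and 59.6 to 63.8 CPM in KO (logFC = −0.25, padj = 0.315). *Sirt1*, a deacetylase that represses PPARG, was at 25.5 to 29.0 CPM in WT and 30.4 to 30.7 CPM in KO (logFC = 0.15, padj = 0.514), and *Ncoa4*, a coactivator, had a logFC of −0.18 (padj = 0.597). Of 20 inputs to *Pparg* in fat cell formation, 19 were tested, with 2 lower and 2 higher at an unadjusted p under 0.05. *Egr2* (KROX20), an early factor of fat cell formation, was at 24.0 ± 1.48 CPM in WT and 34.8 ± 3.72 CPM in KO without overlap (logFC = 0.54, SE 0.08, padj = 0.111), *Klf2*, a repressor of *Pparg* in preadipocytes, had a logFC of 0.29 (padj = 0.382), and *Klf15* is in this list too.

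The other nuclear receptors that pair with RXR were the list whose summed level stood apart. Of 13 genes 12 were tested, 0 were lower and 3 higher in KO at an unadjusted p under 0.05, and the median logFC was 0.16. Their summed CPM was 631 to 723 in WT and 746 to 867 in KO, with every KO library above every WT library. *Nr4a1*, an immediate-early orphan receptor induced by gonadotropins, made up most of it, at 474, 409, 387 and 416 CPM in WT and 589, 595 and 473 CPM in KO (logFC = 0.39, SE 0.10, padj = 0.314), and WT1 overlapped with KO4. *Nr4a2*, its relative, had a logFC of 0.48 (padj = 0.395), and *Nr1h2*, which codes the oxysterol receptor LXRB, was at 65.7 to 68.6 CPM in WT and 72.1 to 76.2 CPM in KO (logFC = 0.14, padj = 0.445).

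**Figure D4:**
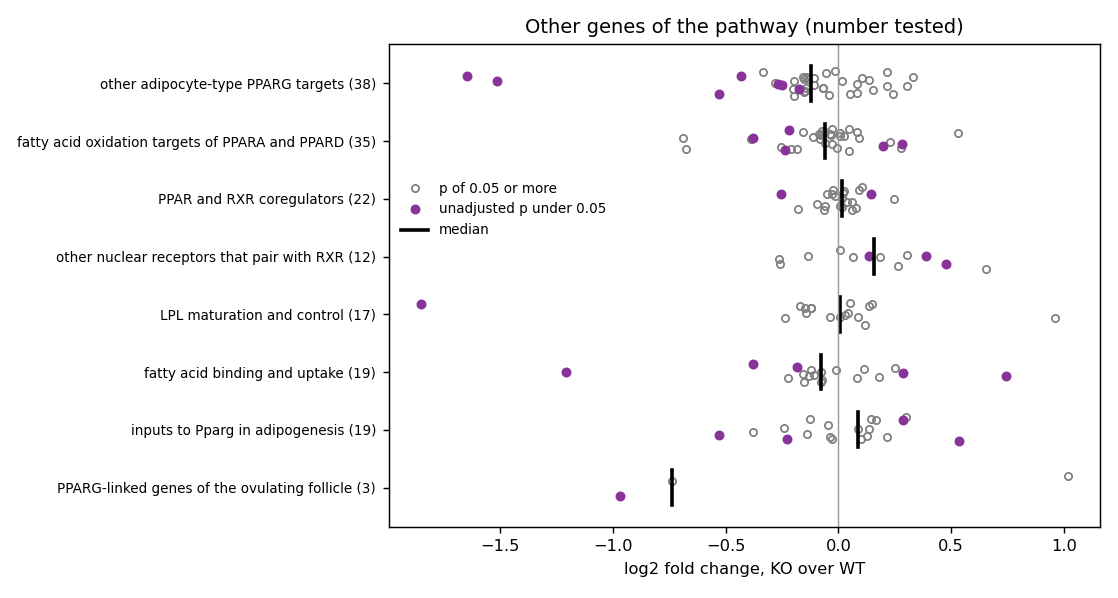
Log2 fold change of KO over WT for each tested gene of the 8 further lists, with the number tested in brackets, a black line at the list's median, and filled points for genes with an unadjusted p under 0.05. In the list of other adipocyte-type targets the 7 filled points are all below 0. By edgeR 0 of the genes shown were called, and by DESeq2 2, *Klf15* and *Egr2*.

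*Edn2*, *Prkg2* and *Il6*, which code endothelin 2, a cGMP-dependent kinase and interleukin 6 and have been placed under PPARG in granulosa cells of the ovulating follicle, were each read per library. *Edn2* was at 1.71, 5.07, 4.98 and 4.66 CPM in WT and 2.59, 1.52 and 2.17 CPM in KO, with WT1 among the KO libraries (logFC = −0.97, SE 0.36, padj = 0.470). *Prkg2* was at 16.6, 41.5, 19.4 and 42.7 CPM in WT and 18.1, 14.6 and 21.4 CPM in KO, so WT2 and WT4 were high as they were for *Pparg*, and WT1 and WT3 lay among the KO libraries (logFC = −0.74, SE 0.34, padj = 0.568). *Il6* was at 4.63, 10.04, 5.71 and 9.89 CPM in WT and 26.6, 15.1 and 4.33 CPM in KO, with KO4 the lowest of all (logFC = 1.02, SE 0.51, padj = 0.598).

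The genes most like *Pparg* over the 7 libraries in log2 CPM were *Wdfy2* (Pearson r = 0.993), *Ppp3r1* (0.988), *Cnot7* (0.984), *Ate1* (0.984) and *5930430L01Rik* (0.983), out of 19232 genes. Among the members *Fabp4* was next to *Pparg*, with r = 0.844 at rank 651, whereas *Rxrb* (r = −0.753), *Angptl4* (−0.57) and *Lpl* (−0.39) lay the other way. With the group means taken out, the closest genes were *Arap2*, *Osbpl8*, *Zfp971*, *Arhgef7* and *Cux1* (r = 0.996 to 0.992), *Prkg2* had r = 0.925 and *Fabp4* r = 0.601. The members then ran from *Ppara* (r = 0.741) to *Rxrb* (−0.783) and *Angptl4* (−0.875). These values rest on 7 libraries that share their scaling factors, and are given as a description.

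Markers of the cell types that could carry PPARG were read beside it. Granulosa cell markers, whose cells were to be removed, were still present, with all 15 genes tested and a summed level of 5763, 4224, 5188 and 3839 CPM in WT and 4871, 4742 and 5954 CPM in KO. The WT libraries with the highest *Pparg*, WT2 and WT4, had the lowest granulosa marker sums. Such a sum does not tell the number of cells from the RNA that each cell makes. Of the 15 granulosa markers 0 had an unadjusted p under 0.05 and 10 were higher in KO by direction alone, with a list median of 0.13. Theca markers (11 of 11 tested) summed to 12355 to 14836 CPM in WT and 10376 to 11718.5 CPM in KO, and smooth muscle markers (10 of 10) to 2467 to 3217 CPM in WT and 1816 to 2396 CPM in KO, with every KO library below every WT library in both. Of the smooth muscle markers 9 had an unadjusted p under 0.05, all lower in KO, with a list median of −0.44. Of the 11 theca markers 2 were lower and 0 higher at that limit, with a list median of −0.25. Among all genes 5.10% were lower and 3.84% higher at that limit. Only 1 theca marker had every KO library below every WT library, beside 7 of the smooth muscle markers and 5.12% of all genes. The part of these cells in the *Pparg* and *Fabp4* values was not tested.

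**Figure D5:**
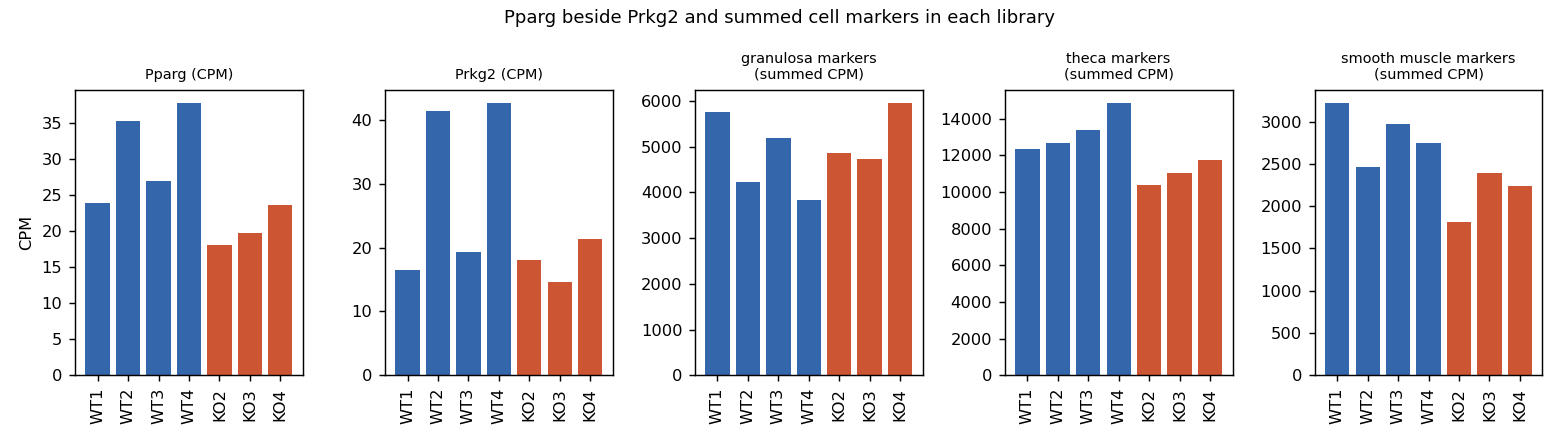
CPM of *Pparg* and *Prkg2* and the summed CPM of granulosa, theca and smooth muscle markers in each library, with WT in blue and KO in orange and all axes from 0. *Pparg* and *Prkg2* are highest in WT2 and WT4, whereas the granulosa sum is lowest there.

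Endothelial markers, which matter for *Fabp4* and *Cd36*, summed to 1155 to 1357 CPM in WT and 1131 to 1187 CPM in KO. Only WT4 (1155 CPM) overlapped with KO, and the other WT libraries were at 1266 to 1357 CPM. Of the 14 genes 3 were lower at an unadjusted p under 0.05 and 12 were lower by direction alone, with a median of −0.14. Without WT4 all 14 were lower, 8 of them at that limit. Without WT1 11 were lower, 2 of them at that limit. Macrophage markers summed to 241 to 305 CPM in WT and 233 to 325 CPM in KO, with 0 of 13 past that limit in either direction. Their part in the *Fabp4* values was not tested. Of the remaining lists, at an unadjusted p under 0.05, fibroblast markers had 1 lower and 1 higher of 10 in KO. Red blood cell markers had 1 lower of 7, and oocyte markers 5 higher of 10, beside 5.10% lower and 3.84% higher of all genes. By direction alone 6 of the 7 red blood cell markers were higher in KO, with a median logFC of 0.20, and all 10 oocyte markers were, with a median of 0.29.

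Some of the defining genes of fat cells were near 0. *Adipoq*, the adipokine that defines them, had 4, 3, 20 and 2 reads in WT and 2, 4 and 3 in KO, *Cidec* 0, 0, 11 and 1 and 0, 1 and 0, *Lep* a single read in WT3, and *Cfd* 15, 8, 81 and 14 and 0, 4 and 16. WT3 was the highest library for each of these genes, and it was also the highest for the adipocyte-type transcript Pparg-201. Of the other markers in the list, *Car3* was highest in WT3 too (139 reads). The rest had most reads in other libraries, among them *Retn* (212 in KO2, 172 in WT3) and *Slc2a4* (433 in WT1, 417 in WT3). *Plin1*, which steroid-making cells also express, was at 39.3, 19.9, 34.3 and 20.6 CPM in WT and 33.9, 37.0 and 30.3 CPM in KO. The 14 adipocyte markers, of which 9 passed the filter, summed to 463 to 547 CPM in WT and 401 to 500 CPM in KO, most of it from *Mrap*, an accessory protein of melanocortin receptors that steroid-making tissue also makes. Of the 9 tested, 8 had a logFC below 0 and the median was −0.28, with 0 called and 1 at an unadjusted p under 0.05, *Thrsp*, a lipogenic factor (logFC = −0.42, padj = 0.449). Without *Mrap* and *Plin1*, a choice made after the values were seen, the other 12 markers summed to 16.2, 15.5, 19.8 and 13.5 CPM in WT and 11.7, 13.7 and 11.97 CPM in KO. Of these 12, *Slc2a4* had the most reads, from 279 in KO2 to 433 in WT1. The sums of the 12 were mostly lower in KO, as *Pparg* and *Fabp4* were, but WT4 overlapped KO3, and WT4 was the WT library with the highest *Pparg*. The part of fat cells in the *Pparg* and *Fabp4* values was not tested. Without WT3 the list's median was −0.24, the logFC of *Pparg* −0.66 and that of *Fabp4* −0.49.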

How the data were processed

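Stromal libraries of 4 WT and 3 KO pools of the PRKO line were grouped by genotype label. For each transcript the authors deposited Salmon's expected counts, made from paired-end 100-base reads of a stranded mRNA kit against GENCODE M26 (GRCm39); the Salmon version and its strand setting are not given in the sources used here. The deposited TPM values are Salmon's, scaled by effective length and library total. Here 137570 of 139225 transcripts (98.8%) were matched by Ensembl ID to GENCODE M39, and counts and TPM were summed per gene. Expected counts were rounded and tested with edgeR 4.0.16 in R 4.3.3 (TMM, filterByExpr, glmQLFit, glmQLFTest), with Benjamini–Hochberg adjustment over all 19233 genes or 55145 transcripts. CPM use TMM factors, with a prior count of 2 on the log2 scale. For single values an exact permutation test was used (two-sided), whose 35 arrangements of the labels allow no p under 0.0286. Scripts were tested on simulated data.

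The members, the 20 gene lists and the tests were chosen with earlier results of these data known. Genes were named by rule: the 10 members, their transcripts with at least 10% of the gene's TPM, *Pgr*, called genes and the 3 lowest p of each pathway list, 5 adipocyte markers, and the 5 genes most like *Pparg*. Some genes that this rule names are not reported here. Between 99.37% and 99.4% of reads were matched. Replicate numbers 2 to 4 are shared by the groups without a stated pairing; same-numbered libraries deviated together with r = −0.013, 0.106 and 0.085, so they were not treated as pairs. Alternatives were DESeq2 1.42.0, limma-voom (limma 3.58.1), median-of-ratios size factors, other count filters, length offsets, protein-coding genes, a replicate block, no fold limit, other scales and leaving out each library.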

Additional observations from a re-analysis of the deposited data

Results flagged for a closer look

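The highest and the lowest of the 4 WT libraries were compared with the other 3 for 85 sets of values, and 12 libraries stood apart from the rest by the 95% limit of Dixon's ratio for 4 samples; chance alone would pick about 1 in 20 sets, and sets that share genes or libraries are not independent. WT3 was high for some genes of fat cells. *Adipoq* was at 0.355 CPM beside 0.03 to 0.08 CPM in the other WT libraries, and *Cidec* at 0.195 beside 0 to 0.02. *Lep* was at 0.0177 CPM beside 0, and *Cfd* at 1.44 CPM beside 0.16 to 0.29. WT3 was also the WT library with Rxrg-204, at 0.0601 TPM beside 0. WT1 was low for *Edn2* (1.71 CPM beside 4.66 to 5.07), *Cd36* (13.5 TPM beside 16.7 to 17.4) and Cd36-206 (2.07 TPM beside 4.16 to 4.39), and high for the summed level of the genes for LPL maturation and control (3032 CPM beside 2896 to 2908). WT4 was high for *Ncoa4* (186 CPM beside 162 to 165) and for the summed level of fatty acid binding and uptake genes (4668 CPM beside 3583 to 3697), and low for Angptl4-201 (23.4 TPM beside 28.3 to 28.7).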

How the results depend on the processing

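*Pparg* and *Fabp4* kept their direction in all 16 other settings, with a log2 fold change of −0.71 to −0.48 and −0.49 to −0.33 and a padj of 2.31e-05 to 0.788 and 0.206 to 0.802. *Pparg* was called by DESeq2, alone and with a replicate block, so the members called numbered 1 there and 0 in every other setting. The called genes, 2 in edgeR, numbered 144 in DESeq2, 36 with no filter on low counts, 6 with at least 10 counts in every library, and 1 to 4 without single libraries. The called transcripts, 4 in edgeR, numbered 295 in DESeq2, 2 in limma-voom, 2 with at least 10 counts in every library, and 0 to 5 without single libraries.

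Replicate number 1 exists in WT only, so with the replicate number as a block WT1 does not enter the difference between KO and WT. The logFC of *Pparg* was −0.70 with this block in edgeR (padj = 0.0899) and −0.69 without WT1. With the block the called genes numbered 26 in edgeR and 187 in DESeq2 and the called transcripts 0 and 330. Pparg-204 was the 1 called transcript of the members in DESeq2. Of the 155 genes of the 8 further lists, this block left 0 called in edgeR and 7 in DESeq2: *Plin4*, *Plin5*, *Edn2*, *Prkg2* and *Vnn1* as lower and *Egr2* and *Cpt1b* as higher in KO, without *Klf15*. The libraries share only a number: KO3 and KO4 correlated best with the WT library of their own number, and KO2 did not (its highest r was 0.038, with WT4).

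The members with differences near 0 changed sign in some settings. The log2 fold change of *Angptl4* was 0.0066 in limma-voom, 0.0037 with no filter and 0.0037 with at least 10 counts in every library, 0.0100 with protein-coding genes, 0.082 with a replicate block in edgeR and 0.084 in DESeq2, and −0.096 to 0.082 without single libraries. That of *Ppara* was 0.21 with transcript length offsets, 0.17 as a difference of log2 TPM, and −0.18 to 0.061 without single libraries, where *Cd36* ranged from −0.18 to 0.00023 and *Rxra* from −0.095 to 0.0026. Of the transcripts, Cd36-202 ranged from −0.14 to 0.35 without single libraries, Cd36-206 from −0.016 to 0.32, Lpl-201 from −0.013 to 0.14, Ppara-202 from −0.15 to 0.13 and Angptl4-202 from −0.092 to 0.079. With a replicate block Cd36-206 was at −0.034 in edgeR and −0.040 in DESeq2, Ppara-202 at −0.00090 in DESeq2 and Angptl4-201 at 0.0038 in edgeR. Angptl4-202 was at −0.00085 in DESeq2 and −0.00087 with median-of-ratios size factors.

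The share of the adipocyte-type form in *Pparg* differed by −2.12 to 0.55 percentage points without single libraries, and that of *Pparg* among the PPARs by −11.4 to −7.36. The list medians that moved beyond the spread between libraries were those of the PPARs (−0.18 to −0.019), the 4 targets (−0.10 to −0.021), the other nuclear receptors that pair with RXR (0.079 to 0.22), the inputs to *Pparg* (−0.0075 to 0.084) and the red blood cell markers (−0.12 to 0.34); that of the other adipocyte-type targets ranged from −0.12 to −0.052. In that last list, 7 genes were lower and 0 higher in KO at an unadjusted p under 0.05 in edgeR. Those counts were 6 and 2 in DESeq2, 7 and 2 with no filter, and 9 and 3 with a replicate block in edgeR. They were 8 and 3 without WT1, 7 and 0 without WT3, and 5 and 4 without KO4. The cause of these differences between settings was not tested. At this depth the levels of *Rxrg*, Pparg-201 and the fat cell genes rest on few reads.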
